A study of Mus musculus with 16 samples.

Results

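Bone marrow-derived dendritic cells (BMDCs) that lack the transcription factor IRF1 were compared with wild-type BMDCs after both had been exposed to cyclic di-GMP (c-di-GMP). The comparison takes in the 4 samples so labelled of 16 in the series, 2 of Irf1-/- CDG and 2 of WT CDG, and 11079 of the 23356 genes in the deposited table could be tested. All mice had a C57BL/6 background, and bone marrow was cultured with GM-CSF and IL-4 before c-di-GMP was added for 18 h, at 25 μg/ml according to the labels. The study's text gives another dose for the RNA-seq experiment, so the dose is uncertain. Untreated BMDCs of both genotypes (WT NT and Irf1-/- NT, 2 samples each, in medium for the same time) were used to see how much of each difference was there without c-di-GMP. BMDCs that lack both IRF3 and IRF7 (Irf3/7-/- NT and Irf3/7-/- CDG, 2 samples each) are quoted for a few genes. The deletions are carried by every cell of the mice, and the study's methods describe the mice as sex-matched young adults. The labels do not say whether the 2 samples of a group came from different mice.

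c-di-GMP is a bacterial second messenger that binds STING, the product of Tmem173, and STING activates IRF3 and NF-κB and so starts the production of type I interferon. IRF1 is itself induced by interferons, most of all by IFN-γ, and binds elements built from GAAA repeats in the promoters of antiviral and antigen presentation genes. Irf1-/- mice are also known to have few NK cells and few CD8+ T cells.

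The authors combined the samples of each group and deposited, for every gene in a group, 1 FPKM value (a fragment count divided by transcript length and library size) and an interval around it. There is no spread between samples, no p-value and no read depth in these values. Genes entered a comparison if either group reached 1 FPKM and both had a status of OK. A gene was called lower or higher when the difference was above 2-fold after adding 0.1 FPKM and the intervals lay apart. Among 5626 genes that reached 10 FPKM in both treated groups, interval bounds lay at a median of 25.3% from the value in WT CDG and 25.6% in Irf1-/- CDG. All differences below are log2 values of Irf1-/- minus wild type on the FPKM + 0.1 scale.

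Irf1 itself was at 245 FPKM in treated wild-type BMDCs (interval 176 to 314) and at 116 FPKM in treated Irf1-/- BMDCs (82.8 to 149). In untreated cells it was at 149 and 25.9 FPKM. Its gene-level transcript was thus lower in the knockout with c-di-GMP (difference -1.08) and without it (-2.52), but was still present, and the table does not show which exons the fragments came from. The Y-linked transcripts Ddx3y, Eif2s3y, Kdm5d and Uty were present in all 4 groups, and Xist was at most at 0.00286 FPKM. The dendritic cell markers Itgax (135 FPKM in WT CDG and 255 in Irf1-/- CDG) and Zbtb46 (15.9 and 18.5) were present in both treated groups, and 2 of the 15 tested genes of the dendritic cell list were called, namely Ciita and H2-Ab1, both lower in the knockout.

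The treated comparison gave 544 genes lower in Irf1-/- (4.91% of those tested) and 294 genes higher (2.65%). The median difference over all tested genes was 0.02. Of the genes called, 175 were more than 4-fold lower and 57 more than 4-fold higher. Another 118 tested genes differed by more than 2-fold but had overlapping intervals. In untreated cells, 388 genes were lower in Irf1-/- (3.52% of 11017 tested) and 139 higher (1.26%). The treated and the untreated comparison share no group. They had 231 lower genes in common, which is 42.5% of the treated list and 59.5% of the untreated list, and 64 higher genes in common, 21.8% and 46% of those lists. The treated list therefore held 313 lower and 230 higher genes that were not called in the same direction in untreated cells. Some of these were not tested there. Whether the difference of a given gene changed between untreated and treated cells was not tested, since that needs values per sample.

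**Figure D1:**
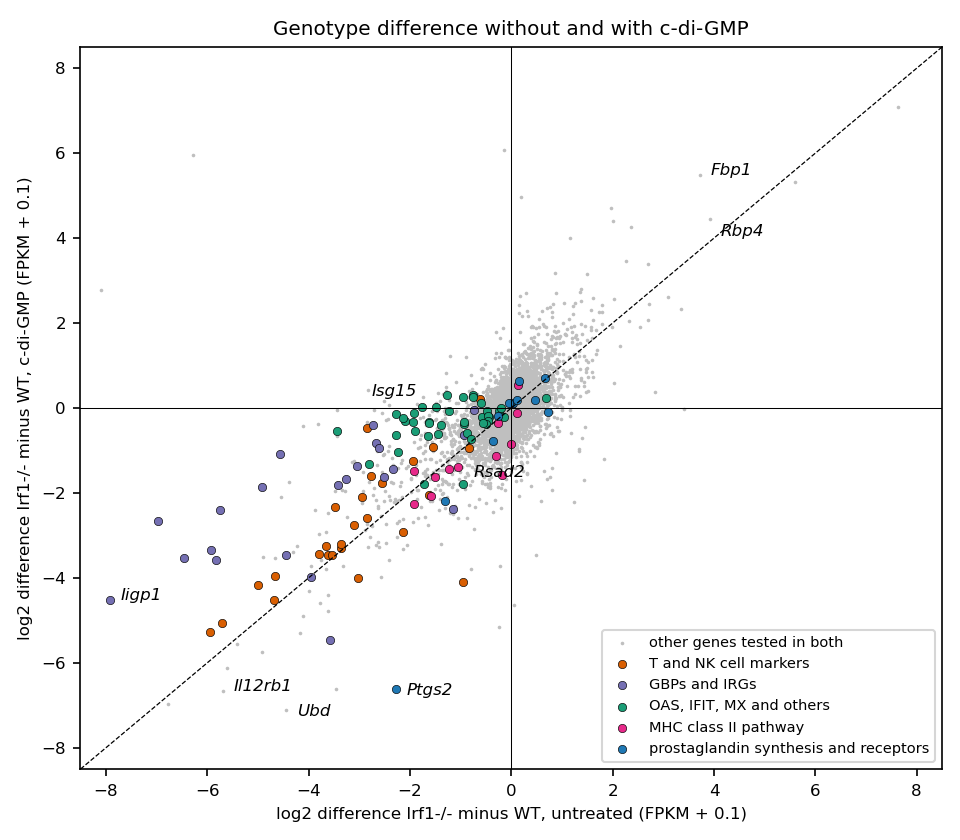
Log2 difference of Irf1-/- minus wild-type BMDCs without c-di-GMP (x axis) and with c-di-GMP (y axis), one point per gene tested in both, with 5 groups of genes in colour and equality as a dashed line (10 of the 10623 genes lie outside the axes). Antiviral effectors such as Isg15 lie left of 0 but near the horizontal line, most T and NK cell markers lie below and to the left of 0, and Ptgs2 lies far below it.

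Transcripts of lymphocytes moved with the genotype and bear on several results below. Of the 27 tested markers of T and NK cells, 22 were lower in treated Irf1-/- BMDCs and none higher, with a median of -3.19. In untreated cells 25 of 29 were lower. The summed FPKM of the 21 NK cell markers was 971 in WT CDG and 41.9 in Irf1-/- CDG, and 1016 and 31.4 in the untreated groups. That of the 17 T cell markers was 121 and 66.2 with c-di-GMP, and 212 and 75.8 without. Granzyme A (Gzma), a protease of killer cell granules, was at 329 FPKM in WT CDG and 8.4 in Irf1-/- CDG. Perforin (Prf1) was at 4.3 and 0.0902 FPKM, the CD8 chain Cd8a at 16.5 and 1.4, and Cd3e of the T cell receptor complex at 5.41 and 0.479. The NK cell receptor Ncr1 was at 0.29 FPKM in WT CDG and listed at 0 in both Irf1-/- groups. In such bulk samples, fewer cells of a type and less RNA per cell cannot be told apart. Of the 21 NK cell markers, 7 were listed at 0 in Irf1-/- CDG and 1 in WT CDG. For the other lists, the summed FPKM of the dendritic cell list was 3744 and 3098 in the treated groups, that of the macrophage list 973 and 818, that of the neutrophil list 2092 and 1536, and that of the B cell and plasmacytoid DC list 12.9 and 15.2. The sum of the basophil, mast cell and eosinophil list was 1360 in WT CDG and 520 in Irf1-/- CDG, and 4 of its 17 tested genes were lower and 2 higher. The 4 lower genes were the eosinophil granule genes Prg2, Epx, Ear1 and Ear6, which were lower in untreated cells too. Ear1 was at 161 FPKM in WT CDG and 23.5 in Irf1-/- CDG. The 2 higher genes were Siglec5 (treated difference 1.16) and Kit (1.04). Ear2 (-0.18) and Ccr3 (0.12) of the same list were not called, so its genes did not fall as a whole. The basophil and mast cell genes Mcpt8 (24.5 and 26 FPKM) and Cpa3 (12.3 and 18.1) were not called.

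**Figure D2:**
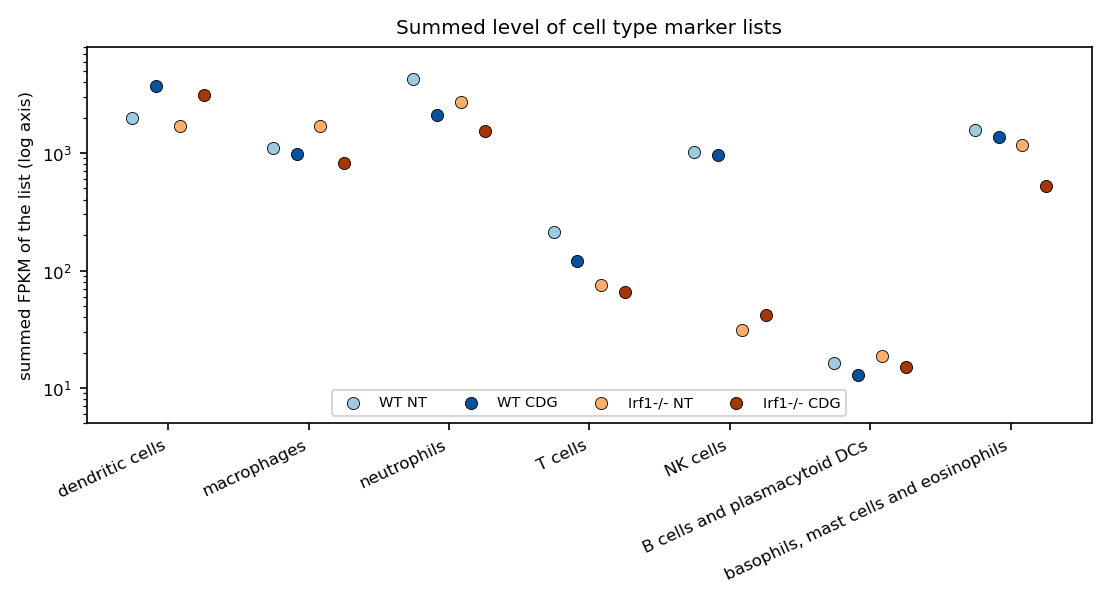
Summed FPKM (log axis) of 7 lists of cell type markers in untreated (NT) and treated (CDG) wild-type and Irf1-/- BMDCs, one point per group. The NK cell sum is 971 in WT CDG and 41.9 in Irf1-/- CDG, whereas the dendritic cell sums of the treated groups are 3744 and 3098.

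Among called genes with at least 10 FPKM, the 12 largest falls in treated Irf1-/- BMDCs were in genes of quite different functions. Not called, because the intervals overlapped, were 22 tested genes listed at 0 in one treated group and with at least 10 FPKM in the other. Ubd, which encodes the ubiquitin-like modifier FAT10, was at 137 FPKM in WT CDG (interval 101 to 173) and 0.895 in Irf1-/- CDG (0.424 to 1.36), a 138-fold difference. Without c-di-GMP it was at 5.27 and 0.147 FPKM. Clic5, a member of the chloride intracellular channel family, was at 15.6 FPKM in WT CDG (12.1 to 19.1) and 0.0436 in Irf1-/- CDG (0.00677 to 0.0745), and at 0.219 and 0.0167 in untreated cells. In the treated knockout both genes stayed below their level in untreated wild-type cells. Il12rb1, the receptor chain shared by IL-12 and IL-23, was at 24.3 FPKM in WT CDG (18.7 to 30) and 0.144 in Irf1-/- CDG (0.0554 to 0.235), a difference of -6.65. It was already at 9.62 and 0.0886 FPKM without c-di-GMP, so its untreated difference (-5.69) was close to the treated one. T and NK cells also express Il12rb1, and their part in the difference was not tested.

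Ptgs2, which encodes cyclooxygenase-2, the inducible enzyme that starts prostaglandin synthesis, was at 92.1 FPKM in WT CDG (69.7 to 114) and 0.843 in Irf1-/- CDG (0.566 to 1.12). In untreated cells it was at 1.28 and 0.187 FPKM, so the difference was -2.27 without and -6.61 with c-di-GMP. The keratin gene Krt16 was at 133 FPKM in WT CDG (102 to 163) and 3.35 in Irf1-/- CDG (2.39 to 4.32), and at 0.0523 and 0.0678 in the untreated groups. Il18bp, a secreted inhibitor of IL-18, was at 113 FPKM in WT CDG (84.7 to 141) and 4.04 in Irf1-/- CDG (2.84 to 5.28). Intervals that lie apart were required for a call, so they are no separate support for the genes named here. The other 6 of the 12 largest falls were the granzymes Gzma, Gzmc and Gzmg, the interferon-inducible GTPase-like genes Gm4841 and F830016B08Rik, and Gm15056. Gzmc was at 206 and 6.07 FPKM and Gzmg at 10.5 and 0.098 FPKM in the treated groups, beside the NK cell sums given above. Gm4841 was at 33.9 and 0.625 FPKM and F830016B08Rik at 14.8 and 0.404. Gm15056 was at 61.6 and 0.533 FPKM, but its value in WT CDG lay above its own upper bound (49.1), as happened for 77 genes of at least 1 FPKM in that group.

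**Figure D3:**
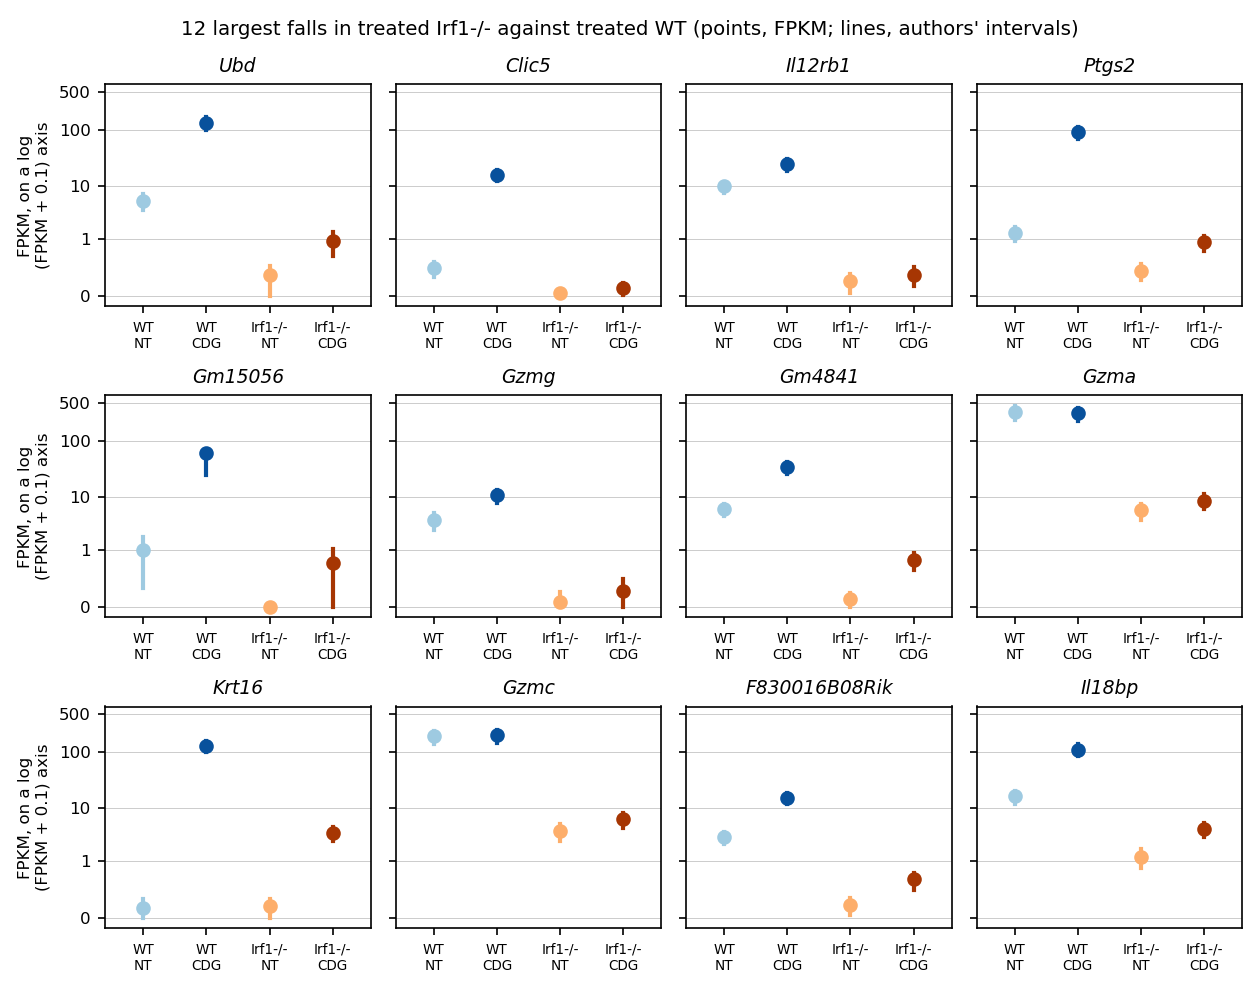
FPKM (points) and the authors' intervals (lines) of the 12 largest falls among genes called lower in treated Irf1-/- against treated wild-type BMDCs that had at least 10 FPKM, in untreated (NT) and treated (CDG) cells on a log (FPKM + 0.1) axis. Ubd, Clic5, Ptgs2 and Krt16 are highest in WT CDG, while Il12rb1, Gzma and Gzmc are high in both wild-type groups.

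Promoters were searched for the paired GAAA element, in which any 2 bases stand between a pair of GAAA repeats, a kind of sequence that IRF proteins can bind. The search covered both strands from 250 bases before to 50 bases after each start site of the RefSeq promoter set (GRCm38.p6). A promoter was found for 374 of the 544 lower genes. Of these, 46 held the paired GAAA element, which is 12.3% (95% Wilson interval 9.35 to 16). The motif stood in 8 of 211 promoter-matched higher genes (3.79%, 1.93 to 7.3), in 340 of 8300 tested genes (4.1%, 3.69 to 4.54) and in 3.44% of all 32851 promoter windows. Among genes lower in treated cells and not called lower in untreated cells the share was 9.57%, and among genes lower in untreated cells it was 16.3%. The lower genes had 1.33 windows each and the tested genes 1.28. Among the tested and promoter-matched members of the lists, the element stood in 4 of 4 guanylate-binding protein genes, 8 of 11 immunity-related GTPase genes, 4 of 4 apolipoprotein L genes and 17 of 33 antiviral effectors, but in 0 of 11 prostaglandin genes and 0 of 21 glycolysis genes. Called lower in treated cells were 10 of 11 tested guanylate-binding protein genes, 8 of 13 immunity-related GTPase genes and 4 of 4 apolipoprotein L genes. The antiviral effectors had 4 of 40 lower, the prostaglandin genes 3 of 12 and the glycolysis genes 6 of 21. Of the 12 largest falls, 8 had a promoter in the set and Gzma alone held the element.

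The promoters of the 6 largest falls with a match that could be printed are shown because they carry the element beside the difference in transcript level. They belong to Gzma, Aif1 (a calcium-binding protein of myeloid cells), the IRG genes Tgtp1 and Gm12250, and the apolipoprotein L genes Apol7c and Apol9b. Their positions in GRCm38.p6 are chr13:113100932-113101231 (minus strand) for Gzma, chr17:35176003-35176302 (minus) for Aif1, chr11:48992197-48992496 (minus) for Tgtp1, chr11:58183593-58183892 (plus) for Gm12250, chr15:77533266-77533565 (minus) for Apol7c and chr15:77728822-77729121 (plus) for Apol9b. Each is written 5′ to 3′ on the strand of the gene, with matches to the paired GAAA element, on either strand, in capitals. The Gm12250, Apol7c and Apol9b promoters hold 2 matches each, which overlap in Apol7c and Apol9b. Aif1 was at 12.1 FPKM in WT CDG and 0.678 in Irf1-/- CDG. A match is a run of letters and was not shown to be bound here.
Gzma: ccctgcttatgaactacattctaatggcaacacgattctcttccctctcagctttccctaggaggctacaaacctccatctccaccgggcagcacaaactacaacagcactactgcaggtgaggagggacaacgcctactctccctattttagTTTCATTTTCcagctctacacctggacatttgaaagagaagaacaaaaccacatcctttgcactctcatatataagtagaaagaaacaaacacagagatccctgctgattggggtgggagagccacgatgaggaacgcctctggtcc
Aif1: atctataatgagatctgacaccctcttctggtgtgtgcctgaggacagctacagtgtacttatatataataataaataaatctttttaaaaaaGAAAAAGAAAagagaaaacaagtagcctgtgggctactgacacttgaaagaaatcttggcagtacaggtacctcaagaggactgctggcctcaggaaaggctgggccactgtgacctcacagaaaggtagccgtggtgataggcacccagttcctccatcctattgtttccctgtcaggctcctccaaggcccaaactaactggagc
Tgtp1: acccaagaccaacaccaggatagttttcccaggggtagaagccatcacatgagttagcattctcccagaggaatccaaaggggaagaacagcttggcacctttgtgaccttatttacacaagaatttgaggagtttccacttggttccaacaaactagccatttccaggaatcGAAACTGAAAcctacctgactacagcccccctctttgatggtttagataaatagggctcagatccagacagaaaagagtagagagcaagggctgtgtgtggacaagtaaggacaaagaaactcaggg
Gm12250: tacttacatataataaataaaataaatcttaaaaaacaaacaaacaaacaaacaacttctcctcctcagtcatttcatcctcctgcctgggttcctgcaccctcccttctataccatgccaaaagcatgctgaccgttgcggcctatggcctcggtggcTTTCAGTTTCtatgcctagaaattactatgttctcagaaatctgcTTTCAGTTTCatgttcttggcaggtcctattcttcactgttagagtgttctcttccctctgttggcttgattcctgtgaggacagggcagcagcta
Apol7c: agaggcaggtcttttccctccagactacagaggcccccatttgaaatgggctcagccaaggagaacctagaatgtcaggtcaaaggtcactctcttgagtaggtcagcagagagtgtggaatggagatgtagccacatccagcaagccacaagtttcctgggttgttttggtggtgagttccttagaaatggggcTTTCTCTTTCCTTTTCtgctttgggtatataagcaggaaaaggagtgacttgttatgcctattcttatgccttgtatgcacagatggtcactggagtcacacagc
Apol9b: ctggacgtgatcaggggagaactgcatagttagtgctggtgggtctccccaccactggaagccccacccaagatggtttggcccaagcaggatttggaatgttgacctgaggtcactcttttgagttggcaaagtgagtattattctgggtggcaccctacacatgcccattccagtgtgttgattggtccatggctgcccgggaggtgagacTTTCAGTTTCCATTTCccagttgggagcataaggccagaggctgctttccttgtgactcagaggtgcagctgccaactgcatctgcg

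Most of the tested interferon-inducible GTPase genes were lower. Guanylate-binding proteins (GBPs) and immunity-related GTPases (IRGs) attack the vacuoles of intracellular pathogens. Of the 11 tested GBPs, 10 were lower in treated Irf1-/- BMDCs, with a median of -2.38, and 10 of 10 were lower in untreated cells, with a median of -3.34. Gbp2 was at 1036 FPKM in WT CDG (772 to 1298) and 325 in Irf1-/- CDG (248 to 402), and at 382 and 39.7 without c-di-GMP. Gbp11 was at 6.19 and 0.0422 FPKM in the treated groups, Gbp10 at 2.71 and 0.132, and Gbp8 at 42.2 and 2.6. The differences thus ran from Gbp5, which was not called in treated cells (-0.83), to -5.47 in Gbp11. Of 13 tested IRGs, 8 were lower with c-di-GMP (median -1.37) and 10 without it (median -4.45). Iigp1 was at 161 FPKM in WT CDG and 6.89 in Irf1-/- CDG, and at 45.9 and 0.0896 in untreated cells. Irgm1 was at 304 and 230 FPKM with c-di-GMP, which was not called, against 112 and 16.9 without. In treated Irf1-/- BMDCs, Irgm1, Irgm2 (35.3 FPKM) and Igtp (60.6 FPKM) stood at or above their level in untreated wild-type cells, whereas Iigp1 did not. Genes of both families have near copies in the genome, and how the authors divided fragments between them was not stated, so the split within a family is uncertain. All 4 tested apolipoprotein L genes were lower as well, among them Apol7c at 103 and 17.4 FPKM and Apol10b at 3.09 and 0.0328.

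Fewer of the classical antiviral genes were called in treated than in untreated cells. Of 40 tested genes of the OAS, IFIT, MX, IFITM and Schlafen families and other antiviral effectors, 4 were lower in treated Irf1-/- BMDCs and none higher, with a median of -0.3. Over all tested genes 4.91% were lower in treated cells, and 32 of the 40 antiviral genes had a treated difference below 0. In untreated cells 20 of the 40 were lower, with a median of -1.09. Isg15, a ubiquitin-like modifier, was at 2262 FPKM in WT CDG (1496 to 2756) and 2308 in Irf1-/- CDG (1544 to 2848), against 57.7 and 17 in untreated cells. Ifit1, which binds viral RNA, was at 337 and 256 FPKM with c-di-GMP, and Oas2, which makes the activator of RNase L, was at 23.9 and 15.3. The exceptions were Rsad2, Cmpk2, Ifi44 and Isg20. Rsad2, which encodes the antiviral protein viperin, was at 1245 FPKM in WT CDG (899 to 1588) and 362 in Irf1-/- CDG (269 to 453), and at 3.99 and 2.02 without c-di-GMP. Cmpk2, which lies beside Rsad2 on chromosome 12, was at 410 FPKM (296 to 521) and 117 (84.8 to 150). Ifi44 was at 73.3 and 29.2 FPKM. Isg20, an exonuclease named for its call after the values were seen, was at 195 and 95.4 FPKM.

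Genes of interferon signalling were largely not called in treated cells. None of 21 genes of STAT and JAK signalling was called in treated cells (median -0.07). Over all tested genes 4.91% were lower and 2.65% higher, so the lack of calls in these short lists is given as a description. None of 19 genes of DNA and RNA sensing was called in treated cells (4 lower untreated), nor any of 9 PARP and DTX3L genes (4 lower untreated) or of 13 NF-κB subunits and inhibitors (0 untreated). Among the IRF family, Irf7 was at 687 and 969 FPKM with c-di-GMP (15.2 and 6.22 without), Irf8 at 303 and 201 (55.5 and 17), Irf9 at 59.2 and 60.4, and Batf2, an IRF partner, at 54.5 and 34.6 (29.1 and 2.59). Of the 12 tested members only Irf1 itself was called in treated cells. For the interferon genes, Ifnb1 was at 2.93 FPKM in WT CDG and 3.53 in Irf1-/- CDG and was not called, and Ifna4 was higher in the knockout at 9.37 FPKM (5.74 to 11.8) against 3.53 (1.91 to 5.06). The other 13 genes of that list did not reach the limits for testing. The Ifna genes closely resemble each other, so the value of Ifna4 may hold fragments of others.

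**Figure D4:**
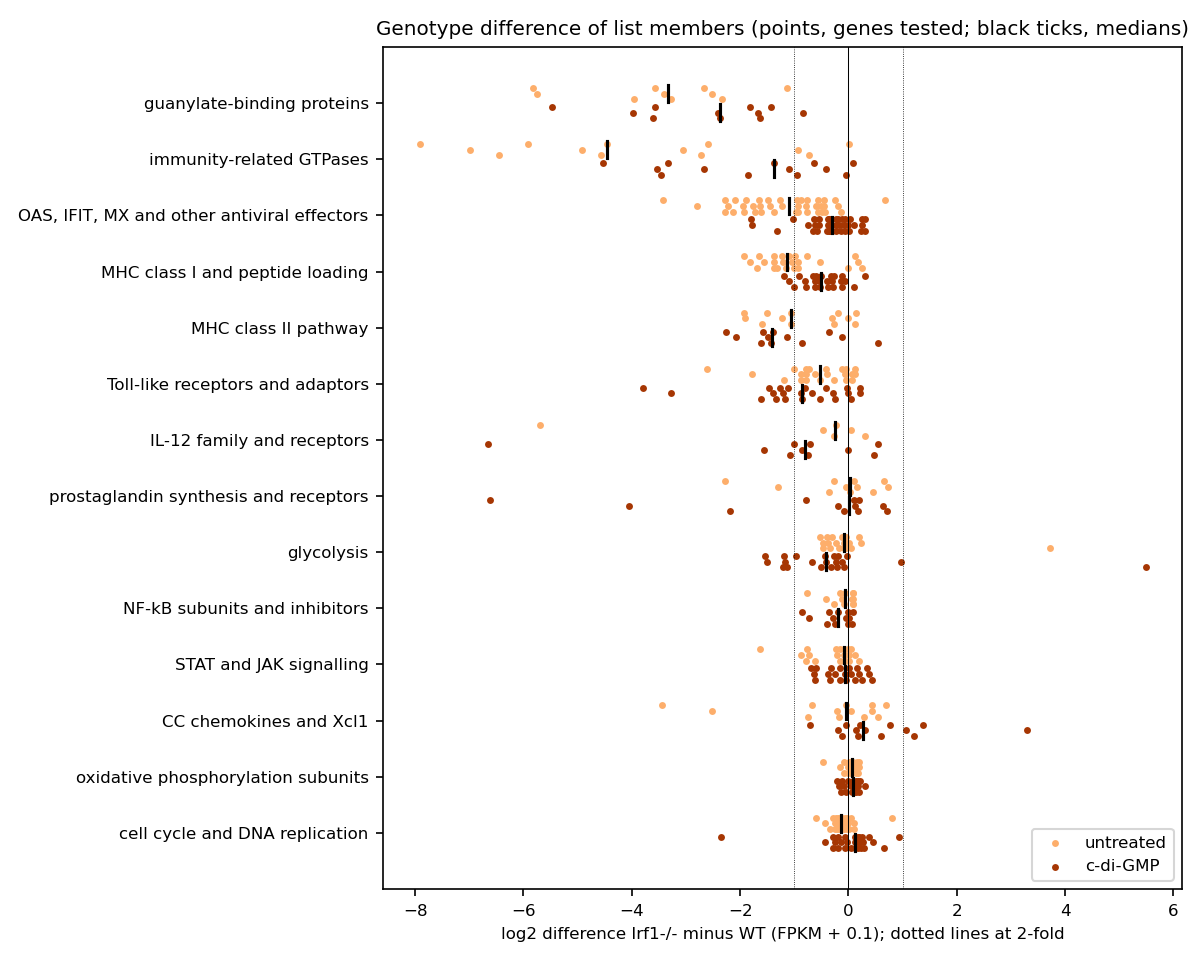
Log2 difference of Irf1-/- minus wild-type BMDCs for the tested members of 14 gene lists, without c-di-GMP (light points) and with it (dark points), with medians as black ticks and 2-fold marked by dotted lines. The median of the antiviral effectors is -1.09 without and -0.3 with c-di-GMP, that of the MHC class II list is -1.06 and -1.41, and that of the GBPs is -3.34 and -2.38.

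MHC class II genes were lower in larger part than MHC class I genes in treated cells, a difference between the lists that was not tested. Of 25 tested genes of class I and peptide loading, 3 were lower in treated Irf1-/- BMDCs (median -0.5) and 14 of 24 in untreated cells (median -1.12). H2-K1, a class I heavy chain, was at 2003 FPKM in WT CDG and 1384 in Irf1-/- CDG, B2m at 8294 and 5719, and Tap1 of the peptide transporter at 269 and 190, and none of these was called. Tap2, the other transporter subunit, was lower at 212 and 92.8 FPKM, as were the loading factor Tapbpl (86.5 and 43.1) and the trimming peptidase Erap1 (45.1 and 21.2). Psmb10, an immunoproteasome subunit, was at 238 and 107 FPKM and was the single gene of 10 in its list to be lower. In the class II pathway, 8 of 12 tested genes were lower with c-di-GMP (median -1.41), and 7 of 13 without it (median -1.06). H2-Eb1 was at 729 FPKM in WT CDG (550 to 908) and 152 in Irf1-/- CDG (117 to 188), after 454 and 121 in untreated cells. H2-Aa was at 1424 and 462 FPKM and H2-Ab1 at 890 and 331. Ciita, the master activator of class II genes, was at 38.5 FPKM (27.3 to 49.9) and 13.6 (9.63 to 17.8), after 25.8 and 6.75. Cd74, the invariant chain, was at 4983 and 3918 FPKM and was not called. None of the costimulatory genes Cd40 (432 and 457 FPKM), Cd80 (207 and 197) and Cd86 (255 and 248) was called, and the checkpoint ligand Cd274 was at 398 and 297 FPKM.

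Receptors of innate immunity were among the lower genes. The shares over all tested genes in treated cells were 4.91% lower and 2.65% higher. Of 23 tested Toll-like receptors and adaptors, 10 were lower with c-di-GMP (median -0.85) and 4 without it (median -0.53), with 2 genes in both. Cd14, the co-receptor that hands lipopolysaccharide to TLR4, was at 181 FPKM in WT CDG (117 to 211) and 12.9 in Irf1-/- CDG (8.23 to 16.7), after 18.5 and 10.6 in untreated cells. Tlr4 was at 32.5 and 10.5 FPKM, the DNA sensor Tlr9 at 11.2 and 4.84, and the double-stranded RNA sensor Tlr3 at 6.77 and 2.75. Tlr11 was at 1.4 and 0.0541 FPKM and was lower without c-di-GMP as well. Among 18 tested C-type lectin receptors, 5 were lower and 3 higher. Clec4e, the Mincle receptor for mycobacterial glycolipid, was at 234 and 41.5 FPKM, its partner Clec4d at 107 and 21.9, and Clec7a, the dectin-1 receptor for fungal glucan, at 839 and 366. In contrast, Clec4b1 was higher in the knockout at 6.78 FPKM (4.52 to 9.04) against 0.329 (0 to 0.693), after 66.9 and 30 in untreated cells. Among the formyl peptide receptors, Fpr2 was at 245 FPKM in WT CDG and 20.4 in Irf1-/- CDG, and Fpr1 at 109 and 16.8, and both were lower without c-di-GMP too.

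Cytokine genes did not share a direction. Both subunits of IL-12 were lower in treated Irf1-/- BMDCs. Il12b, the p40 subunit that IL-12 shares with IL-23, was at 148 FPKM in WT CDG (114 to 182) and 49.9 in Irf1-/- CDG (38.6 to 61.3), while Il12a was at 6.57 (4.65 to 8.49) and 3.08 (2.02 to 4.15). Il12b was at 4.59 and 5.73 FPKM without c-di-GMP. Il23a, the other subunit of IL-23, was at 7.81 and 10.9 FPKM and was not called, and neither were Il27 (20.6 and 10.2) and Ebi3 (240 and 147). Il1b was at 611 FPKM in WT CDG (469 to 753) and 113 in Irf1-/- CDG (86.8 to 139). Since it was at 154 and 120 FPKM in untreated cells, the level of the treated knockout was no higher than that of the untreated knockout. Il1a was at 390 and 146 FPKM and Casp1, the enzyme that matures IL-1β, at 157 and 68.7. In the same list Il18 (difference -0.90), Casp4 (-0.63) and the Gasdermin D gene Gsdmd (-0.41) were not called. Of the 26 tested genes of the IL-1 family, its receptors and the inflammasome, 7 were lower and 2 higher. The shares over all tested genes were 4.91% and 2.65%. Il6 (339 and 228 FPKM) and Tnf (91.1 and 75.4) were not called. Ifng was at 299 FPKM in WT CDG (205 to 367) and 25.5 in Irf1-/- CDG (17.4 to 31.4), and at 34.6 and 1.26 without c-di-GMP. T and NK cells are its usual source, and the part of their lower marker transcripts in this difference was not tested. Il15, which sustains NK cells, was at 74.6 and 56.2 FPKM and was not called, but its receptor chain Il15ra was lower at 80.1 and 39.6. Il22 was higher in the knockout at 3.5 FPKM (2.23 to 4.76) against 0.317 (0.11 to 0.512), as were Il9 (3.22 and 0.845), Il34 (1.58 and 0.605) and Il33 (67.8 and 21.6), of which Il9, Il34 and Il33 are named after their values were seen.

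Chemokine genes were called in both directions. Of 9 tested CXC chemokines, 3 were lower and 2 higher in treated Irf1-/- BMDCs, beside 4.91% lower and 2.65% higher over all tested genes. The CXCR3 ligands Cxcl9 (52.2 FPKM in WT CDG and 15.4 in Irf1-/- CDG) and Cxcl10 (1037 and 483) were lower, though the locus of Cxcl10 overlaps those of Art3 and Cxcl11. In untreated cells they were at 21.7 and 0.947 FPKM and at 24.1 and 4.06. Cxcl11, another CXCR3 ligand, had a treated difference of -1.62 but was not called, because its intervals overlapped. The neutrophil attractant Cxcl3 was at 82.4 FPKM (53.1 to 95.2) and 18.1 (11.3 to 23), after 15.9 and 23.7 without c-di-GMP. The platelet chemokine genes Ppbp and Pf4 were the higher ones, Pf4 being named after its values were seen. Cxcl2, a relative of Cxcl3, was at 24.6 and 12.3 FPKM with c-di-GMP and at 6.79 and 17.3 without, where it was called higher. Of 14 tested CC chemokines and Xcl1, 4 were higher and none lower. Ccl3 was at 375 FPKM in WT CDG (229 to 412) and 876 in Irf1-/- CDG (533 to 962). Ccl8 was at 8.67 and 22.7 FPKM in the same order, and Ccl11, which draws eosinophils, was at 0.0634 in WT CDG and 1.51 in Irf1-/- CDG. Ccl5, the most abundant of them in treated cells, was at 36577 and 31790 FPKM, Ccl2 at 1087 and 1199 and Ccl17 at 13781 and 17101, and these were not called. Ccl22 was listed at 0 in both treated groups without an OK status and was not tested. Among chemokine receptors, Ccr2, which draws monocytes to CCL2, was higher at 60.5 FPKM (43.1 to 77.6) against 6.62 (4.79 to 8.45), after 247 and 135 in untreated cells, and Ccr7, which guides dendritic cells to lymph nodes, was at 1257 FPKM in WT CDG and 1026 in Irf1-/- CDG and was not called.

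Lipid mediator and metabolic genes followed. In the prostaglandin list, Ptgs2 was joined by Ptges, the inducible prostaglandin E synthase, at 20.8 FPKM in WT CDG (16.1 to 25.5) and 1.15 in Irf1-/- CDG (0.796 to 1.5), and by Pla2g4a, which releases arachidonic acid, at 26.1 (20.2 to 32) and 5.67 (4.29 to 7.06). These 3 steps follow each other in the synthesis of prostaglandin E2. The other 9 of 12 tested genes were not called, and the constitutive cyclooxygenase Ptgs1 was at 14.6 and 22.9 FPKM. Nos2, the inducible nitric oxide synthase, was at 334 FPKM (248 to 420) and 65.1 (48.5 to 81.7), and the tryptophan-degrading enzyme Ido1 at 3.36 and 0.182. Irg1, which makes itaconate (1717 and 1371), and Arg1 (339 and 270) were not called. In the glycolysis list, 6 of 21 tested genes were lower and 1 higher in treated cells, against 0 lower and 1 higher without c-di-GMP. The shares over all tested genes were 4.91% lower and 2.65% higher in treated cells. The higher gene was Fbp1, a gluconeogenic enzyme. The lactate exporter Slc16a3 was at 71.1 and 24.4 FPKM, the glucose transporter Slc2a1 at 88.4 and 38.2 and the kinase Pdk1 at 8.27 and 2.84. Also lower were Hk1 (difference -1.17), Pfkl (-1.18) and Pfkfb3 (-1.14). The other 14 genes were not called, among them Gapdh (-0.22), Ldha (-0.11) and Eno1 (-0.43). The heme oxygenase gene Hmox1 was at 423 and 151 FPKM, after 85.9 and 135 in untreated cells. In the complement list 7 of 15 tested genes were lower, among them factor B (Cfb) at 534 and 51.1 FPKM and Serping1, the C1 inhibitor, at 5.8 and 0.605. C1qa was at 3.14 and 0.739 FPKM and was lower without c-di-GMP as well.

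In several other lists the calls were few, at shares near or below those over all tested genes (4.91% lower and 2.65% higher), so the counts are given as a description. None of 20 tested subunits of oxidative phosphorylation was called (range -0.21 to 0.31), none of 9 housekeeping genes (median 0.11), and 1 of 28 cell cycle genes. That gene was Ccne1, encoding cyclin E1, at 113 FPKM in WT CDG (85.8 to 139) and 21.9 in Irf1-/- CDG (16.8 to 27), after 27.4 and 23.6 without c-di-GMP. The proliferation marker Mki67 was at 21 and 17.2 FPKM. Of 22 cholesterol genes the single call was a higher level of Ch25h, which makes 25-hydroxycholesterol, at 23.5 FPKM (14.1 to 27.7) against 7.54 (4.44 to 9.24). In the BCL2 family, the death inducer Bcl2l11 was lower at 23.2 FPKM in WT CDG and 10 in Irf1-/- CDG.

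Among called genes with at least 10 FPKM, the largest rise in treated Irf1-/- BMDCs was that of Fbp1, which encodes the gluconeogenic enzyme fructose-1,6-bisphosphatase. It was at 27.9 FPKM in Irf1-/- CDG (20.9 to 35) and 0.524 in WT CDG (0.242 to 0.78), a 44.9-fold difference, and at 46.6 and 3.43 FPKM without c-di-GMP. In the same order, Rbp4, a carrier of retinol, was at 131 FPKM (96 to 166) and 5.92 (3.95 to 7.89), and its neighbour on chromosome 19, the fatty acid receptor Ffar4, at 46.8 (28.8 to 51.2) and 6.61 (3.88 to 8.14). Both were also higher in untreated knockout cells. Anxa8, an annexin whose locus in the table overlaps that of Antxrl, was at 20.2 and 0.854 FPKM, and the glycerol and water channel Aqp3 at 36.6 and 4.03. The remaining members of the 12 largest rises, beside Ccr2, were the matrix protein Thbs4 (15.8 and 1.73), the neuropeptide Npy (18.2 and 2.65), the receptor Cd200r3 (28.6 and 4.32), the transcription factor Tal1 (10 and 1.67), the intermediate filament gene Nes (13.2 and 2.28) and A530064D06Rik (58 and 10.3). Of these 12 genes, 8 were called higher without c-di-GMP too, and Ccr2, Npy and Cd200r3 were not, while Thbs4 was too low there to be tested.

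**Figure D5:**
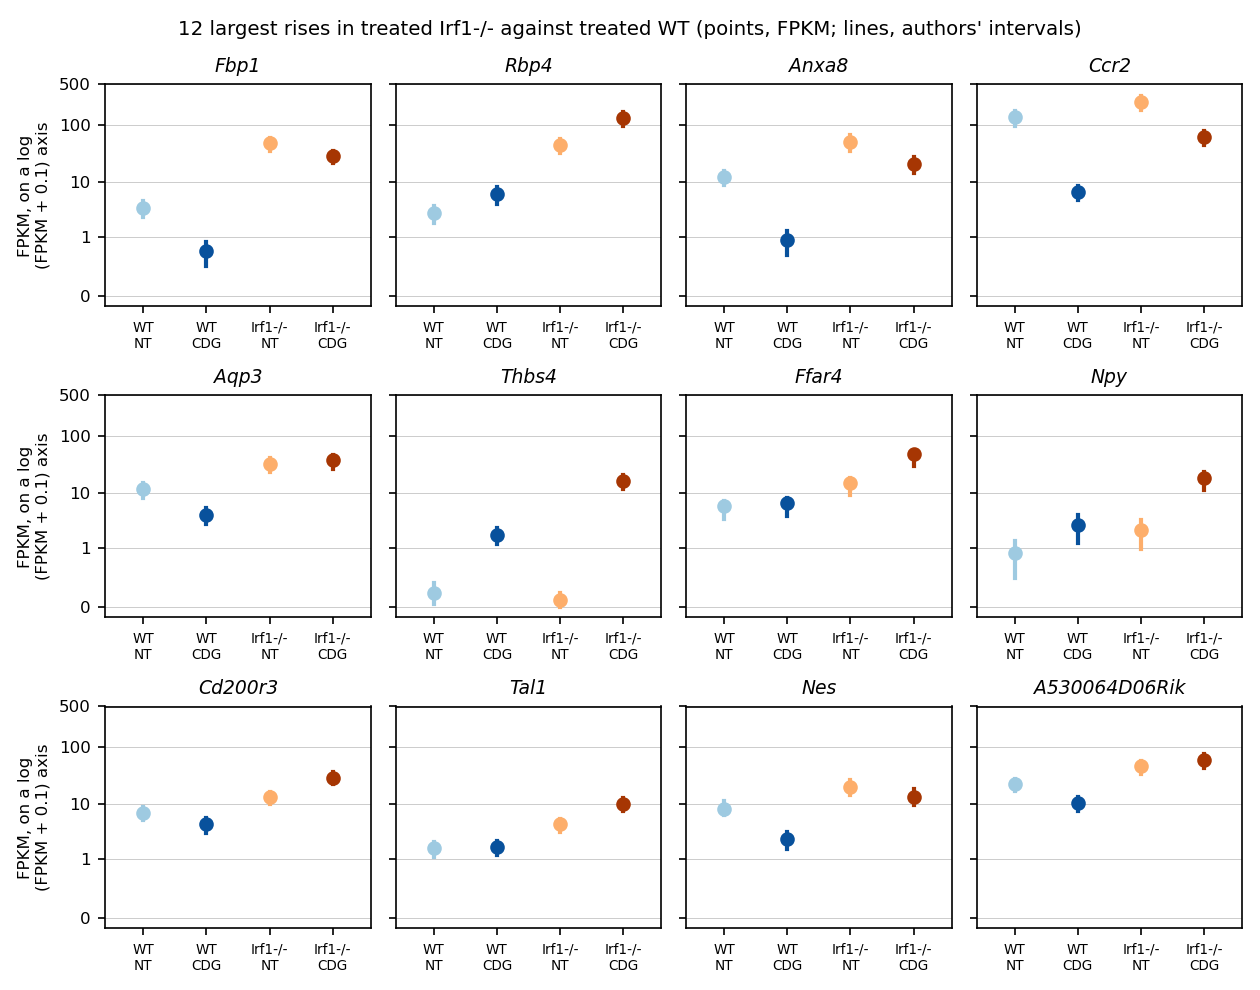
FPKM (points) and the authors' intervals (lines) of the 12 largest rises among genes called higher in treated Irf1-/- against treated wild-type BMDCs that had at least 10 FPKM, in untreated (NT) and treated (CDG) cells on a log (FPKM + 0.1) axis. Fbp1, Anxa8 and Ccr2 have their lowest level in WT CDG, while Rbp4, Thbs4 and Npy have their highest level in Irf1-/- CDG.

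The lists of matrix and myeloid genes held calls in both directions. Among all tested genes, 4.91% were lower and 2.65% higher in treated cells. Fn1, encoding fibronectin, was at 8.56 FPKM in Irf1-/- CDG (5.91 to 11.5) and 0.35 in WT CDG (0.197 to 0.512), after 55.7 and 10.8 in untreated cells. The collagenase Mmp13 was at 38.4 and 7.35 FPKM, and the Fc receptor-like gene Fcrls at 6.06 and 0.456. Of 23 tested genes of matrix remodelling and adhesion, 4 were higher and 5 lower, so the list as a whole had no direction (median 0.05). The gelatinase Mmp2 was among the lower genes at 11.6 FPKM in WT CDG and 1.19 in Irf1-/- CDG. In the neutrophil list 4 of 14 tested genes were higher, such as the primary granule enzyme Mpo (12.6 FPKM in Irf1-/- CDG and 2.9 in WT CDG), and 4 were lower, such as the secondary granule peptide Camp (3.96 and 37). The macrophage list had 5 lower genes and 1 higher of 14 tested, with Mertk, a receptor for the uptake of dying cells, at 4.85 FPKM in Irf1-/- CDG and 16.9 in WT CDG.

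Values in treated Irf3/7-/- BMDCs are set beside these as a description, because a comparison of either knockout would use the same treated wild-type group. Ptgs2 was at 125 FPKM in Irf3/7-/- CDG, Clic5 at 8.3 and Il12rb1 at 32.2. Ubd was at 15.3 FPKM, between the treated wild type and the treated Irf1-/- group. Krt16 was at 1.02 FPKM, below the 3.35 FPKM of Irf1-/- CDG. Il12b was at 1474 FPKM and Ifng at 1155, beside an NK cell marker sum of 2920 in that group. Fbp1 was at 2.45 FPKM and Rbp4 at 25.4.

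Some of the genes called lie near Irf1 on chromosome 11. Within 1 Mb of Irf1, 2 of 17 tested genes were lower in treated Irf1-/- BMDCs, Csf2 (4.93 FPKM in WT CDG and 1.26 in Irf1-/- CDG) and Gm12216 (1.41 and 0.154), the latter named after its values were seen. Gm12216 lies 0.01 Mb from Irf1. Within 5 Mb, 9 of 87 tested genes were lower and 1 was higher, beside 4.91% lower and 2.65% higher over all tested genes. Of those 9, 6 were interferon-inducible GTPase genes of the IRG list. These 6 loci lie between 4.41 and 4.84 Mb from Irf1, so the effect of their position cannot be told apart from that of the deletion.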

How the data were processed

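RNA-seq libraries of BMDCs were made from polyadenylated RNA with a stranded kit. The authors deposited FPKM values computed with Cuffdiff, with the bounds of a confidence interval and a status for each gene and group, the samples of a group being combined. The submitters' processing notes name Cuffdiff 1.06 and mm9, but the loci of 21454 of 21681 genes overlapped the same gene in GRCm38 (GENCODE M21), so the coordinates were read as GRCm38. The aligner and annotation version are not given in the sources used here. Groups were taken from the sample labels, and 12 columns of 3 other conditions were not used. Read depth cannot be read from FPKM values, and the intervals are the only measure of precision.

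Differences were computed as log2(FPKM + 0.1) with Python 3.11.15 and pandas 2.3.3, and genes were called by the rule given with the results (at least 1 FPKM, status OK, above 2-fold, intervals apart). Genes were named by a rule: Irf1, the 12 largest falls and 12 largest rises among called genes with at least 10 FPKM, preset key members of 46 gene lists, and the 3 called members of each list with the largest difference. The members and lists were chosen with earlier results of these data known. Alternatives were other pseudocounts, minimums and folds, median centring, fold change alone, and a z value from the widths of the intervals. A second promoter motif was searched and is not reported here.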

Additional observations from a re-analysis of the deposited data

Results flagged for a closer look

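In 2 genes the difference between Irf1-/- and wild-type BMDCs was called in opposite directions without and with c-di-GMP. Htr2a, a serotonin receptor, was higher in the untreated knockout (log2 difference 1.44) and lower in the treated knockout (-1.69). It was at 0.499 FPKM in WT NT, 3.38 in WT CDG, 1.53 in Irf1-/- NT and 0.977 in Irf1-/- CDG. Slc28a3, a nucleoside transporter, was lower in the untreated knockout (-1.20) and higher in the treated knockout (1.23). It was at 5 FPKM in WT NT, 0.509 in WT CDG, 2.12 in Irf1-/- NT and 1.33 in Irf1-/- CDG. The change between the untreated and the treated difference was not tested, because each group has a single value, and all levels were at or below 5 FPKM.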

How the results depend on the processing

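No paired analysis was possible because the table holds a single value per group, and for the same reason no replicate could be left out. The counts in the order lower treated, higher treated, lower untreated, higher untreated, lower in both and higher in both were 544, 294, 388, 139, 231 and 64. With a fold above 4 they were 175, 57, 153, 23, 84 and 11. With a pseudocount of 1 FPKM, higher treated was 183 and higher untreated 78. With a minimum of 5 FPKM, all but lower treated (367) moved by over 1.5 times, to 171, 253, 70, 133 and 34. With a fold above 1.5, higher treated was 463, higher untreated 224 and higher in both 113, and with no minimum higher in both was 104. The counts stayed within 1.5 times under a pseudocount of 0.01 FPKM, median centring, fold change alone (609 lower and 347 higher treated), the z value, and the leaving out of genes whose FPKM lay outside its own interval, an alternative chosen after seeing the data. Of 74 named genes called in treated cells, 40 were still called above 4-fold, 69 with a minimum of 5 FPKM, 70 with a pseudocount of 1 FPKM, 73 with values inside their own interval and 74 under the 6 others, and none changed direction. With 1 to 3 bases between the GAAA repeats, promoter shares were 19.8% of lower, 8.53% of higher and 9.1% of tested genes.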

Other observations

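In the TNF superfamily, 6 of 18 tested ligands and receptors were lower in treated Irf1-/- BMDCs and 1 was higher. The shares over all tested genes were 4.91% and 2.65%. In untreated cells 7 of 20 were lower, beside 3.52% over all tested genes. Tnfrsf14, the receptor HVEM, was at 24.5 FPKM in WT CDG and 4.78 in Irf1-/- CDG, after 14.5 and 4.16 in untreated cells. Tnfsf10, the death ligand TRAIL, was at 16.2 and 6.27 FPKM with c-di-GMP, and Tnfsf13b, the B cell survival factor BAFF, at 2.77 and 1.04. Fasl, the Fas ligand of killer cells, was at 2.65 and 0.11 FPKM, beside the lower T and NK cell markers, whose part in it was not tested. Its receptor Fas was at 29.3 and 29.1 FPKM and was not called.

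Among Fc receptors, which bind antibodies, Fcgr4 was at 47.6 FPKM in WT CDG and 20.1 in Irf1-/- CDG and was lower without c-di-GMP too (5.28 and 0.529). Fcgr1 was lower in untreated cells (18.3 and 5.39 FPKM) and was not called in treated cells (40.6 and 35.1). Sod2, the mitochondrial superoxide dismutase, was at 121 FPKM in WT CDG and 53.4 in Irf1-/- CDG. The inhibitory receptor gene Cd200r1 was higher in the treated knockout at 50.9 FPKM, against 17.2 in the treated wild type, and was at 91.9 and 67.2 FPKM in the untreated groups.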
